A study of Arabidopsis with 8 samples.

Results

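The clade A protein phosphatases type 2C (PP2C) of Arabidopsis are a family of 9 genes, ABI1, ABI2, HAB1, HAB2, AHG1, AHG3, HAI1, HAI2 and HAI3. All 9 were found on the array through the RefSeq accession of each probe, which was mapped to its gene locus, and they were read by 11 probes, of 25374 loci and 43572 probes kept. AHG3 (AT3G11410) had 3 probes and the other genes 1 each. All 9 genes passed the filter on dim probes, as did 21519 loci in all. Each gene is described by its brightest probe, and no probe's level was set against that of another probe.

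Abscisic acid (ABA) is the plant hormone of drought, salt and seed dormancy. Without ABA, the clade A phosphatases remove phosphate groups from SnRK2 kinases and so keep them inactive. When ABA binds a PYR/PYL receptor, the receptor docks onto the phosphatase and blocks it, and the freed kinases act on bZIP transcription factors and on channels of the plasma membrane. In Arabidopsis many of the phosphatase genes are themselves induced by ABA, so the family acts as a negative feedback on the hormone.

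The samples were leaves of the ecotypes Ler (Landsberg erecta) and Sha (Shakdara). Ler is a laboratory line that carries the erecta mutation, Sha is a natural accession, and the labels name no transgene in either. Seedlings were moved 10 days after sowing to fresh plates, either free of salt or holding 100 mM NaCl, and harvested 4 days later. Each ecotype thus had a control group and a salt group, of 2 arrays each. The methods describe the 2 arrays of a group as biological replicates, with the leaves of many seedlings of a plate pooled, and name the light period and temperature differently from the labels. In whole leaves, more cells of a type and more RNA per cell cannot be told apart.

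The 8 arrays were 1-colour Agilent arrays. A signal is given here as a multiple of the array's own 75th percentile, so that 1 is the brightness of the probe at that percentile. Between 72.5% and 79.1% of features lay well above background on an array. Ler control replicate 1 was the dimmest array, with a 75th percentile of 58.2 times the local background against 83.4 to 136.7 times on the other arrays. The typical spread between the 2 arrays of a group was a standard deviation (SD) of 0.08 to 0.09 on the log2 scale. All 5 leaf mesophyll markers were well above background in every group, and so were the 5 root markers. The root marker PYK10 had group means of 39.4 to 90.2, and the part of root cells in these samples was not tested. A gene was called where limma's adjusted p, over 34658 probes, was under 0.05 and the change was over 2-fold.

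**Figure D1:**
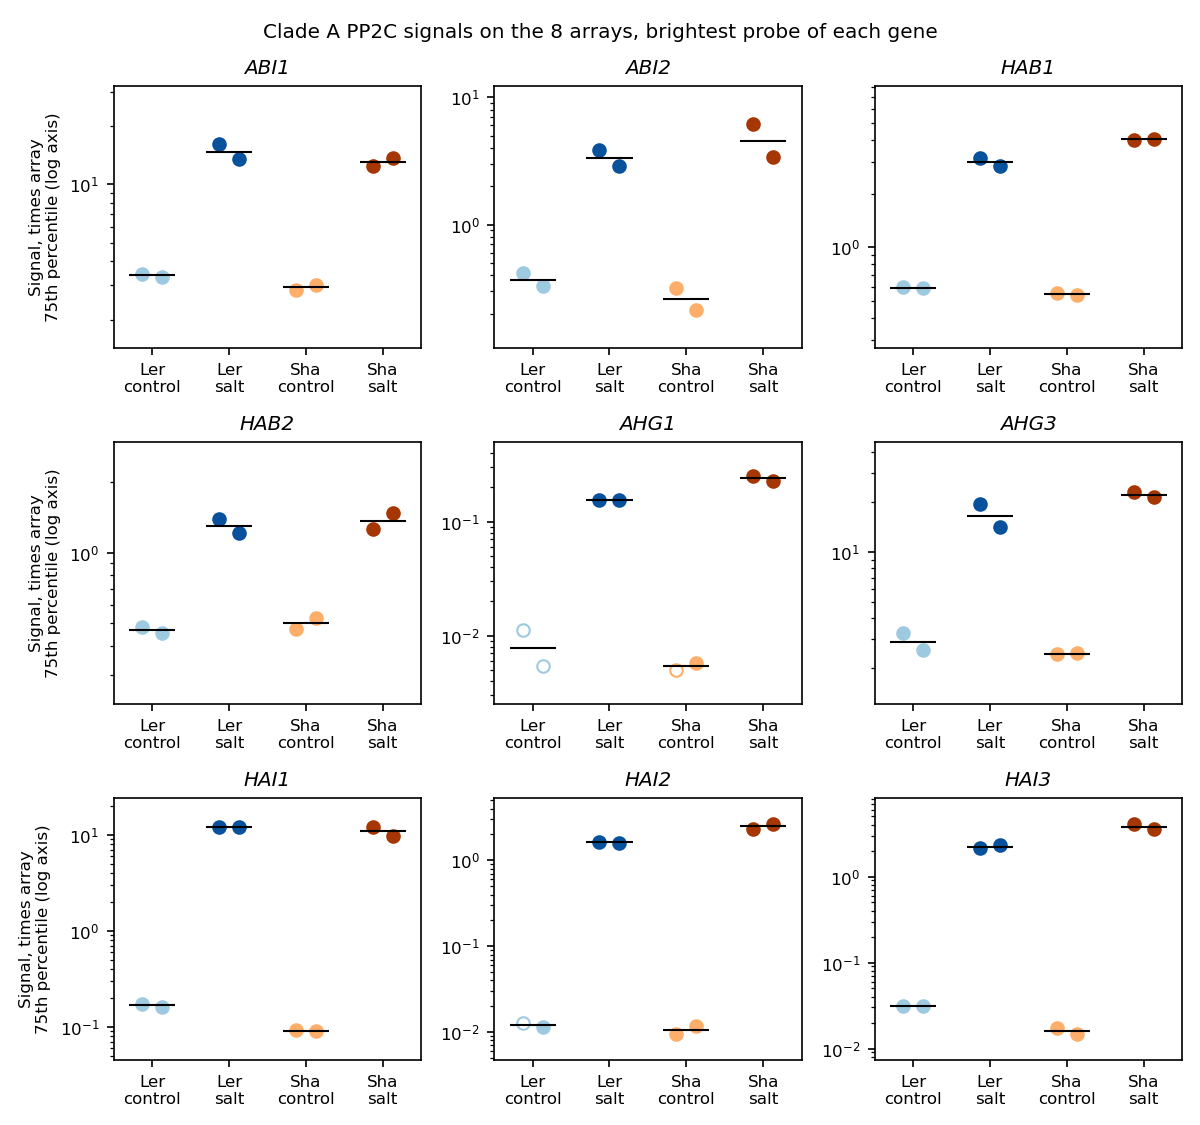
Signal of each clade A PP2C gene on the 8 arrays, as a multiple of the array's 75th percentile on a log axis with its own range in each panel. Points are arrays (left, replicate 1, right, replicate 2), bars are geometric means of 2 arrays, and open points were not well above background. In all 9 panels both salt arrays of an ecotype lie above both of its control arrays.

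Salt up-regulated the whole family in both ecotypes. In Ler 9 of 9 genes were called higher, against 12.4% of all tested probes, and in Sha 9 of 9 were called higher, against 14.8%. The median log2 change of the 9 genes was 3.18 in Ler and 4.12 in Sha, beside −0.10 and −0.04 over all tested probes. It was 2.55 and 3.32 under normexp, another background correction that adds an offset to every signal, and 2.52 and 3.18 over the 7 genes well above background on all 8 arrays. No array of a control group overlapped with the salt arrays of its ecotype for any of the 9 genes, which held in that direction for 37% of all tested probes in Ler and 39% in Sha. The changes spanned a wide range, from 2.77-fold for HAB2 to 133-fold for HAI2 in Ler, and from 2.73-fold for HAB2 to 238-fold for HAI3 in Sha. Under normexp, where all 9 genes were still called in both ecotypes, HAI2 rose by 5.20 in Ler and 6.33 in Sha on the log2 scale and HAI3 by 4.98 and 6.55.

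The 3 HAI genes (Highly ABA-Induced) changed most. They form a branch of their own within the clade, and HAI1, also known as SAG113, has been described in leaf senescence. The HAI3 signal (AT2G29380) was 0.0308 and 0.0311 on the Ler control arrays, 2.12 and 2.34 on the Ler salt arrays, 0.0175 and 0.0147 on the Sha control arrays, and 4.10 and 3.56 on the Sha salt arrays. Sha was thus the lower ecotype without salt and the higher one with salt, and no 2 groups overlapped. The log2 change with salt was 6.17 ± 0.12 in Ler and 7.90 ± 0.12 in Sha (limma estimate ± SE, 2 arrays per group, adjusted p of 9.1e-07 and 5.5e-07). As folds these were 72.0-fold and 238-fold, and 112 tested probes in Ler and 50 in Sha rose by more. In HAI3 the 4 groups fell in the order Sha control, Ler control, Ler salt and Sha salt. In the main fit every neighbouring pair differed beyond the spread by the adjusted p, though neither ecotype difference reached 2-fold. Under normexp the ecotype difference had a limma adjusted p of 0.048 without salt and 0.078 with salt. No slide held both ecotypes, so these 2 differences cannot be told apart from slide differences.

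HAI2 (AT1G07430) gave 0.0129 and 0.0113 in Ler control, 1.66 and 1.57 in Ler salt, 0.00948 and 0.0117 in Sha control, and 2.34 and 2.66 in Sha salt. The control arrays of both ecotypes overlapped, while both Sha salt arrays lay above both Ler salt arrays. HAI2 rose by 7.06 ± 0.13 on the log2 scale in Ler and by 7.89 ± 0.13 in Sha (limma estimate ± SE, adjusted p of 8.4e-07 and 6.1e-07), that is 133-fold and 237-fold, with 47 and 51 tested probes rising by more. Among the Ler control arrays, 1 of 2 had this probe well above background, as did all other arrays, so the Ler value rests on a control level near the limit of detection.

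The HAI1 signal (AT5G59220) was 0.175 and 0.160 in Ler control, 12.0 and 11.9 in Ler salt, 0.0920 and 0.0901 in Sha control, and 12.0 and 9.78 in Sha salt. Here the ecotypes were apart without salt, with Sha the lower one, and overlapped with salt. HAI1 rose by 6.16 ± 0.11 on the log2 scale in Ler and by 6.90 ± 0.11 in Sha (limma estimate ± SE, adjusted p of 8.0e-07 and 5.7e-07), 71.5-fold and 119-fold.

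AHG1 and AHG3 (ABA-hypersensitive germination) are known for holding back the ABA response in seeds. AHG1, unlike most of the clade, is described as insensitive to the PYR/PYL receptors, and it binds the dormancy protein DOG1. Its signal (AT5G51760) was 0.0112 and 0.00547 in Ler control, 0.154 and 0.155 in Ler salt, 0.00505 and 0.00579 in Sha control, and 0.249 and 0.229 in Sha salt. The probe was well above background on 0 of 2 Ler control arrays, on 1 of 2 Sha control arrays and on all 4 salt arrays. In Ler the limma estimate was 4.30 ± 0.31 on the log2 scale (SE, adjusted p = 7.1e-05), with no measured control array. For each control array a floor was taken, the higher of the probe's own signal and the lowest signal among probes well above background. Against these floors the mean of the salt arrays was 18.9-fold higher. This is not a strict lower bound. On Ler control replicate 1 that lowest signal was 0.00984, and HAI2 at 0.0129 was still not well above background. In Sha AHG1 rose by 5.47 ± 0.31 on the log2 scale (SE, limma adjusted p = 2.3e-05), a value that rests on 1 measured control array. Under normexp the AHG1 change was smaller, 2.49 in Ler and 3.32 in Sha on the log2 scale. The 18.9-fold value thus holds for the background correction used here alone.

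Markers of seeds were read beside AHG1. Their median log2 change with salt was 6.14 in Ler, with a range of 4.21 to 7.80. In Sha it was 0.34, with a range of −0.02 to 4.03. Of the 5 seed storage and oil body genes CRA1, CRC, SESA1, OLEO1 and OLEO2, 5 were called higher with salt in Ler and 2 in Sha. In Sha the group mean of OLEO2 was 0.0160 without salt and 0.263 with salt, while that of CRC was 0.248 and 0.243. The share of all tested probes called higher was 12.4% in Ler and 14.8% in Sha. None of the 5 was well above background on both Ler control arrays, where their summed signal was 0.0162 and 0.0183, and on the Ler salt arrays it was 1.1 and 1.13. In Sha the summed signal was 0.390 and 0.454 on the control arrays and 0.680 and 0.800 on the salt arrays. Between the ecotypes, all 5 were called with Sha the higher one without salt and 3 with Sha the lower one with salt, whereas no clade A gene was called in either comparison. The share of all tested probes called was 13.6% without salt and 14.4% with salt. Under normexp the seed marker calls were 5 with salt in Ler, 1 with salt in Sha, 2 between the ecotypes without salt and 2 with salt. The part of these seed transcripts in the AHG1 values was not tested.

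AHG3, also named PP2CA, acts in seeds and in guard cells, where it binds SnRK2.6 and the anion channel SLAC1. By its brightest probe AHG3 read 3.24 and 2.57 in Ler control, 19.4 and 14.2 in Ler salt, 2.43 and 2.46 in Sha control, and 23.0 and 21.4 in Sha salt. Sha lay below Ler without salt and above it with salt on every array. The log2 change was 2.52 ± 0.18 in Ler and 3.18 ± 0.18 in Sha (limma estimate ± SE, adjusted p of 5.9e-05 and 2.0e-05). The other 2 probes of AHG3 gave 2.69 and 2.78 in Ler and 3.19 and 3.17 in Sha. Of the 4 guard cell markers, MYB60 and GC1 were called lower with salt in both ecotypes, at −3.03 and −2.79 in Ler and −2.64 and −3.15 in Sha. FAMA (−0.51 and −0.30) and SLAC1 (0.11 and 0.92) were not called. The share of all tested probes called lower was 15.3% in Ler and 16.2% in Sha. The summed signal of the 4 guard cell markers was 11.4 to 12.9 on the control arrays and 1.66 to 2.06 on the salt arrays. Most of it came from GC1, whose group means were 10.5 and 10.3 without salt and 1.51 and 1.16 with salt. The part of these 4 markers in the AHG3 values was not tested.

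ABI1 and ABI2 were the first phosphatases of the clade to be identified, through dominant mutations that make plants insensitive to ABA. ABI1 (AT4G26080) read 3.46 and 3.31 in Ler control, 16.1 and 13.4 in Ler salt, 2.85 and 3.03 in Sha control, and 12.5 and 13.7 in Sha salt. ABI1 rose in both ecotypes, by 2.12 ± 0.11 in Ler and 2.15 ± 0.11 in Sha (limma estimate ± SE, adjusted p of 1.8e-05 and 1.4e-05) on the log2 scale. ABI2 (AT5G57050) read 0.413 and 0.328 in Ler control, 3.88 and 2.88 in Ler salt, 0.319 and 0.215 in Sha control, and 6.12 and 3.40 in Sha salt. The Sha salt arrays differed with an SD of 0.60 on the log2 scale, and replicate 1 was the higher array in all 4 groups. ABI2 rose by 3.18 ± 0.34 in Ler and 4.12 ± 0.34 in Sha (limma estimate ± SE, adjusted p of 0.00037 and 0.00011).

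HAB1 and HAB2 (hypersensitive to ABA) are close homologs of each other. HAB1 is a well studied partner of the kinase SnRK2.6. HAB1 (AT1G72770) read 0.596 and 0.590 in Ler control, 3.17 and 2.87 in Ler salt, 0.552 and 0.541 in Sha control, and 4.04 on both Sha salt arrays. It rose by 2.35 ± 0.07 in Ler and 2.89 ± 0.07 in Sha (limma estimate ± SE, adjusted p of 3.3e-06 and 1.5e-06), the smallest errors in the family. HAB2 (AT1G17550) read 0.483 and 0.452 in Ler control, 1.39 and 1.21 in Ler salt, 0.472 and 0.529 in Sha control, and 1.26 and 1.48 in Sha salt. HAB2 showed the smallest response of the 9 genes, 1.47 ± 0.12 in Ler and 1.45 ± 0.12 in Sha (limma estimate ± SE, adjusted p of 0.00011 and 0.00011), which 2900 and 3563 tested probes exceeded.

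**Figure D2:**
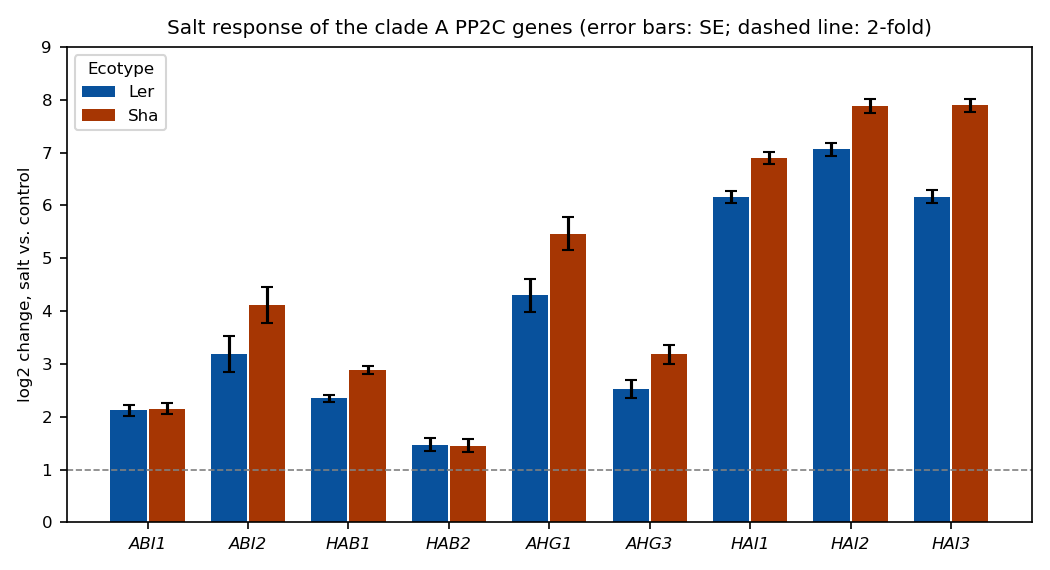
Log2 change with salt of each clade A PP2C gene in Ler and in Sha, brightest probe, with bars for the estimate and error bars for the standard error of the limma fit (2 arrays per group). All 18 bars lie above the dashed line at 2-fold, from 1.45 for HAB2 to 7.90 for HAI3, both in Sha.

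Each slide held the control and the salt array of 1 ecotype and 1 replicate number, so every salt response could also be read within a slide. The 2 within-slide responses of a gene differed by at most 0.28 on the log2 scale in either ecotype, apart from AHG1 in Ler with 3.78 and 4.82 and AHG1 in Sha with 5.62 and 5.31. For ABI2 they were 3.23 and 3.14 in Ler and 4.26 and 3.98 in Sha. For HAI3 they were 6.11 and 6.23 in Ler and 7.87 and 7.92 in Sha.

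The family was also compared between the ecotypes. No slide held both ecotypes, and the replicate 2 arrays of Ler and Sha were scanned on different days. An ecotype difference therefore cannot be told apart from a difference between slides. Without salt 0 of 9 genes were called between Sha and Ler, against 13.6% of all tested probes. Of the 9 estimates 8 were negative, with a median log2 difference of −0.24, or −0.39 with the scan day as a block. AHG1 is among the 8, though neither Ler control array measured it. By the limma adjusted p alone, HAI1 and HAI3 were lower in Sha, by 0.88 ± 0.11 (SE, adjusted p = 0.0018) and 0.95 ± 0.12 (adjusted p = 0.0017) on the log2 scale, and the same 2 genes had an unadjusted p under 0.05. The background for this wider rule was 43.7% of tested probes. With the scan day as a block 5 of 9 genes passed it, against 14041 of 34658 tested probes. With the replicate number as a block 3 of 9 passed, against 17794. Both Sha control arrays lay below both Ler control arrays for 6 genes, ABI1, ABI2, HAB1, AHG3, HAI1 and HAI3, a pattern that 41% of all tested probes showed.

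With salt again 0 of 9 genes were called, against 14.4% of all tested probes, and 7 of 9 estimates were positive, with a median log2 difference of 0.42. By the limma adjusted p alone, against a background of 45.1%, HAB1, HAI2 and HAI3 were higher in Sha, though HAB1 alone passed under normexp. These 3 genes, which were also those with an unadjusted p under 0.05, differed by 0.42 ± 0.07 (SE, adjusted p = 0.0052), 0.63 ± 0.13 (adjusted p = 0.011) and 0.78 ± 0.12 (adjusted p = 0.0031). For AHG3 the brightest probe gave 0.42 ± 0.18 (adjusted p = 0.10), while its other 2 probes, with smaller errors, gave 0.38 (adjusted p = 0.022) and 0.27 (adjusted p = 0.049). ABI1 and HAI1 had the negative estimates, −0.17 and −0.14. Both Sha salt arrays lay above both Ler salt arrays for 5 genes, HAB1, AHG1, AHG3, HAI2 and HAI3, and 36.3% of all tested probes did so. With the scan day as a block 4 of 9 genes passed by the adjusted p alone, against 15941 of 34658 tested probes. With the replicate number as a block 5 of 9 passed, against 17520.

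The difference between the 2 salt responses, Sha minus Ler, was tested in the same fit. HAI3 was called, 1 of 9 genes against 9.09% of all tested probes, and the call was lost under normexp (1.57, limma adjusted p = 0.069, 0 of 9 called). Its response was 1.73 ± 0.17 larger in Sha on the log2 scale (SE, limma adjusted p = 0.0024, 95% interval 1.32 to 2.14), or 3.31-fold. The larger response was made of a lower level without salt and a higher level with salt in Sha, and within the first scan day, which held replicate 1 of both ecotypes, the difference was 1.77. On that day the Sha minus Ler log2 differences of HAI3 were −0.82 without salt and 0.95 with salt.

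By the limma adjusted p alone 4 of 9 genes passed, against 24.2% of all tested probes, and 6 of 9, AHG1 and AHG3 being the further 2, had an unadjusted p under 0.05. Beside HAI3 the 4 were HAB1 with 0.54 ± 0.10 (SE, adjusted p = 0.017), HAI1 with 0.73 ± 0.16 (adjusted p = 0.023) and HAI2 with 0.83 ± 0.19 (adjusted p = 0.027), each under 2-fold, and 0 of 9 passed under normexp. AHG3 differed by 0.66 ± 0.25 (adjusted p = 0.11). AHG1 has no measured difference, since its probe was not well above background on either Ler control array. Its estimate of 1.16 moved to 0.65 or 1.68 when 1 of these arrays was left out.

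The ABI2 difference of 0.94 had a 95% interval of −0.24 to 2.12 (limma adjusted p = 0.20). With the slide as a block, which removes the level shared by the control and the salt array of a slide, 6 of 9 genes passed by the adjusted p alone, against 37.8% of all tested probes. The genes added were ABI2, whose error fell from 0.48 to 0.13 (adjusted p = 0.015), and AHG3, whose error fell from 0.25 to 0.09 (adjusted p = 0.016), and HAI3 remained the sole gene past 2-fold as well. ABI1 and HAB2 were the genes with differences nearest 0, at 0.03 (95% interval −0.35 to 0.41) and −0.02 (95% interval −0.44 to 0.40), which leave room for differences of that size. In all, 8 of 9 estimates were positive, that of AHG1 included although it has no measured difference. The median of the 9 was 0.73, beside 0.03 over all tested probes. On the same arrays the 5 leaf mesophyll markers all had positive differences, 0.82 to 1.44 with a median of 0.90 and 1 called (CA1). The mesophyll median was 0.93 under median scaling and 0.94 under normexp, where the median of the 9 genes was 0.77 and 0.78. Under quantile normalization these medians were −0.01, with 0 mesophyll markers called, and 0.68. That method gives the brightest probes nearly equal values on all arrays. The mesophyll markers other than CA1 had group means of 76.5 to 192, so it could not show a shift in them. The 5 seed markers all had negative differences, with a median of −5.00 and 4 called, or −1.97 and 2 called under normexp. The 5 root markers had a median of −0.04 and 1 called, against 9.09% of all tested probes. The part of these cell types in the family's differences was not tested. The 9 genes share the same 8 arrays and are not independent of each other.

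**Figure D3:**
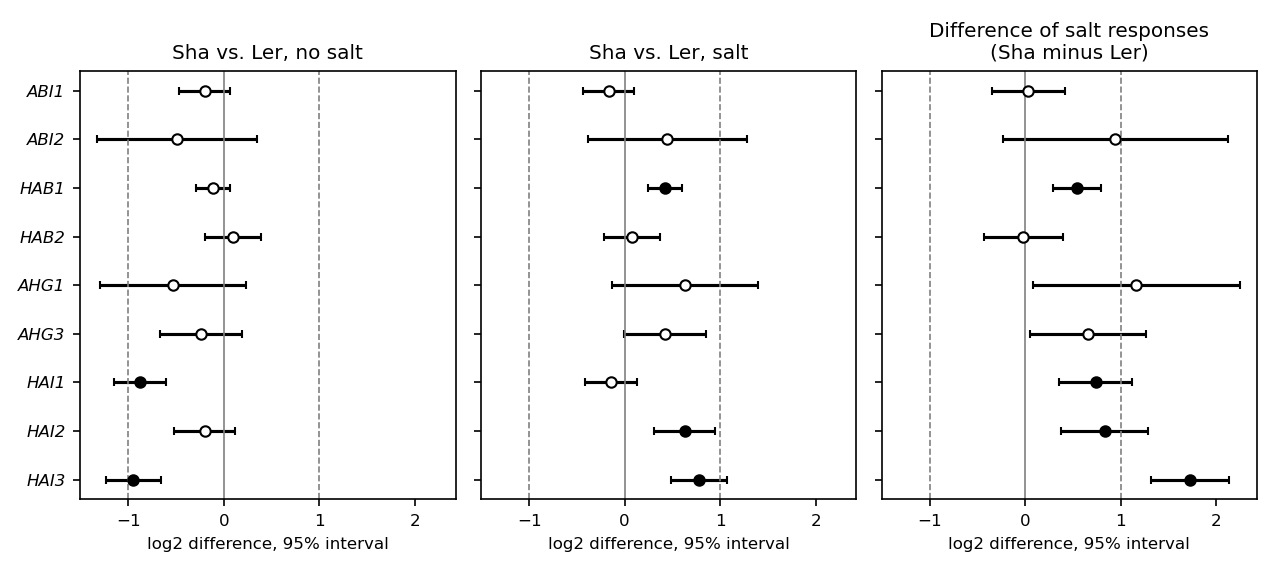
Log2 differences between Sha and Ler for each clade A PP2C gene without salt, with salt, and between the 2 salt responses. Points are limma estimates from 2 arrays per group, lines are 95% intervals, filled points have an adjusted p under 0.05, and dashed lines mark 2-fold. HAI3 is the sole gene whose estimate passes both limits, at 1.73 in the right panel, a call lost under normexp background correction.

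Other steps of the ABA pathway were read from the same fit. The PYR/PYL receptors, which bind ABA and then block these phosphatases, included more genes called lower than higher. Of 14 receptor loci 11 passed the filter, and 5 were called lower and 0 higher in Ler, 8 lower and 1 higher in Sha, against 15.3% and 16.2% of all tested probes called lower. Under normexp 3 were called lower in Ler and 7 in Sha. Their median log2 change was −0.89 in Ler and −1.75 in Sha. PYL6 had the largest fall, with log2 changes of −4.74 ± 0.12 in Ler and −4.22 ± 0.12 in Sha (limma estimate ± SE, adjusted p of 1.9e-06 and 2.2e-06). PYL7 had the highest estimates, 0.92 ± 0.09 in Ler, under 2-fold, and 1.42 ± 0.09 (adjusted p = 2.8e-05) in Sha.

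The SnRK2 kinases are the substrates that the phosphatases inactivate, and 4 of 10 genes were called in each ecotype, a share not far from the 27.8% and 31% of all tested probes called in either direction. In Ler 2 were higher and 2 lower, and in Sha 3 higher and 1 lower. SnRK2.6 (OST1), the main kinase of ABA-driven stomatal closure, rose by 1.12 ± 0.20 in Ler and 1.98 ± 0.20 in Sha (limma estimate ± SE, adjusted p of 0.0037 and 0.00027), from a level that was 1.43 lower in Sha than in Ler without salt on the log2 scale (adjusted p = 0.0028), a call lost under normexp. SnRK2.7 rose by 1.47 and 2.29. SnRK2.2 and SnRK2.3, which act with SnRK2.6 in ABA signalling, gave estimates of 0.50 and 0.37 in Ler and 0.71 and 0.58 in Sha, under 2-fold.

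The remaining SnRK2 genes are placed outside the strongly ABA-activated group. SnRK2.5 fell by 1.18 in Ler, a call lost under normexp, and fell by 2.16 in Sha. SnRK2.8 fell by 1.02 in Ler, a call lost under median scaling, and gave −0.20 in Sha, and SnRK2.9 rose by 1.36 in Sha with 0.73 in Ler. SnRK2.1, SnRK2.4 and SnRK2.10 were not called in either ecotype, with estimates from −0.69 to 0.04.

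The group A bZIP factors are activated by SnRK2 kinases. Of 9 loci 7 passed the filter, with 3 called higher in Ler, 6 in Sha, beside the 12.4% and 14.8% of all tested probes, and no negative estimate among the 7 in either. ABI5, a factor of seed and seedling ABA responses, had the largest rise, 3.22 ± 0.09 in Ler and 4.24 ± 0.09 in Sha (limma estimate ± SE, adjusted p of 2.5e-06 and 1.0e-06). Its responses differed by 1.02 (adjusted p = 0.0050), just past 2-fold, and this call was lost under quantile normalization and under normexp background correction.

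Regulators and targets on either side of the phosphatases were read too. With salt 27.8% of all tested probes in Ler and 31% in Sha were called in either direction. Of 6 ubiquitin ligase loci known to act on the phosphatases 5 were tested, and 1 was called, RGLG1, with 0.78 in Ler and 1.76 ± 0.13 (SE, limma adjusted p = 6.3e-05) in Sha. Of 4 targets of the kinases at the membrane, the anion channel gene SLAH3 was the one called with salt, rising by 2.13 in Ler and 2.57 in Sha. PP2C loci outside clade A were found by their annotated names alone, so the 12 loci found are not the whole PP2C family. Of these 12, 4 were called in each ecotype, a share near that of all tested probes. In each ecotype 3 were higher and 1 lower. Of all tested probes 12.4% in Ler and 14.8% in Sha were called higher, and 15.3% and 16.2% lower. The median log2 changes of the 12 loci were 0.28 and 0.34. PP2C5 rose by 4.04 in Ler and 2.85 in Sha, while AT5G02760 fell by 3.28 and by 3.71.

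**Figure D4:**
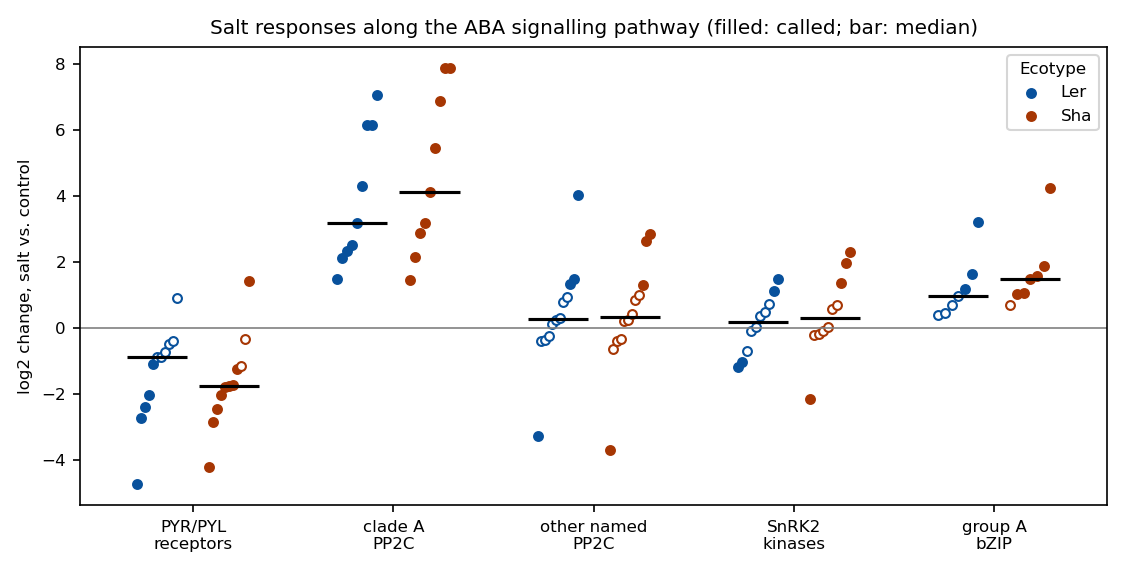
Log2 change with salt in Ler and in Sha for the tested genes of 5 gene lists, 1 point per gene (brightest probe). Filled points were called by limma (adjusted p under 0.05 and over 2-fold), and bars are list medians. The clade A phosphatases are the list in which every point is filled and above 0, with medians of 3.18 and 4.12.

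For each phosphatase gene the locus with the most similar profile was sought among 21510 other tested loci, as the smallest root mean square (RMS) difference of log2 signals over the 8 arrays after centring. HAI1 was nearest to NAC019, a stress-induced NAC transcription factor gene, with an RMS difference of 0.14 and a correlation of 1.00 over 8 arrays, and NAC019 rose by 6.12 in Ler and 6.85 in Sha. HAI2 and HAI3 were each nearest to a late embryogenesis abundant gene, of a protein family tied to desiccation tolerance. HAI2 was nearest to LEA4-5 (RMS difference 0.23) and HAI3 to LEA7 (0.21), which rose by 6.06 in Ler and 7.69 in Sha.

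ABI2 was nearest to PPCK1, a phosphoenolpyruvate carboxylase kinase gene (RMS difference 0.13), and HAB1 to ORP4A, an oxysterol-binding protein-related gene (0.09). ABI1 (AT1G67360, 0.06), HAB2 (AT1G77810, 0.07), AHG1 (AT1G30455, 0.16) and AHG3 (AT1G53100, 0.10) were nearest to loci that the annotation used here names by locus alone. The 8 arrays form 4 groups, so these likenesses mostly describe 4 group means.

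**Figure D5:**
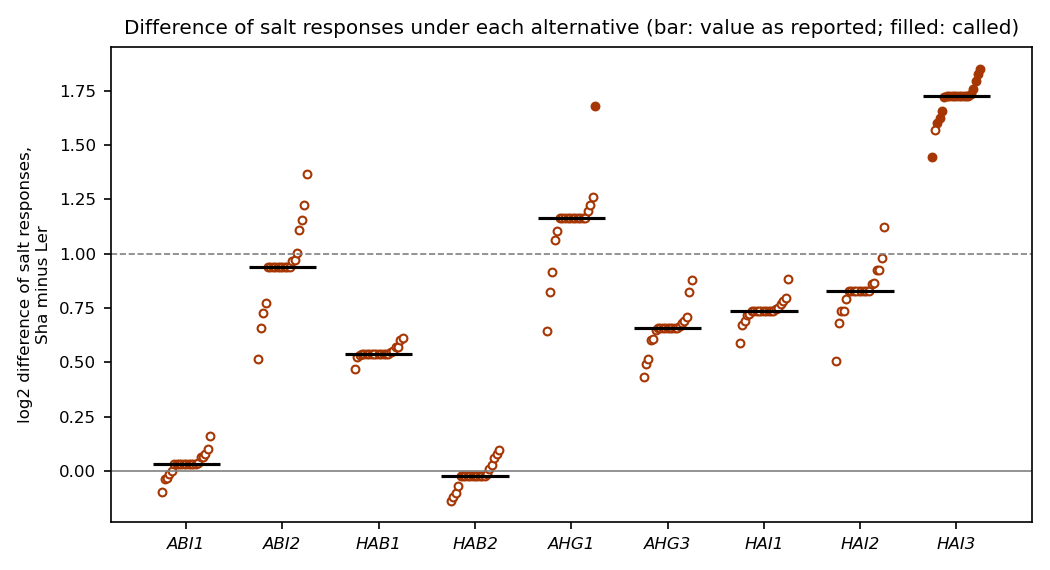
Difference between the salt responses, Sha minus Ler on the log2 scale, for each clade A PP2C gene under each alternative processing or test and with each array left out. Points are alternatives sorted by value, filled where called, bars are the reported values, and the dashed line marks 2-fold. HAI3 stays between 1.44 and 1.85, and AHG1, not measured on the Ler control arrays, ranges from 0.65 to 1.68.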

How the data were processed

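Leaf RNA of 4 groups with 2 arrays each was measured on 1-colour Agilent Arabidopsis oligo arrays. Per the file headers the authors used Agilent Feature Extraction 10.7.1.1, and the deposited processed signal intensity is a background-subtracted spot intensity. The deposited series table held the same values. The methods name GeneSpring for analysis, with limits on p and fold whose test is not named.

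Of 43603 non-control probes 31 with no spot free of outlier flags were left out. The log2 processed intensity minus each array's 75th percentile was fitted with limma 3.58.1 in R 4.3.3 (4 groups, residual df 4), and p-values were adjusted by Benjamini and Hochberg over the 34658 probes that some group had well above background on each of its arrays. No spot was saturated. The number of arrays limits the precision, and p-values measure the spread between 2 pooled samples per group. Where a locus had several probes the brightest on average stood for it. The fit was tested on simulated data. Alternatives were the 4 slides or 3 scan days as blocks, quantile normalization, median scaling, normexp with an offset of 50, other filters, call rules and probe choices, a replicate block and leaving out each array.

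The members and lists were chosen with earlier results of these data known. Named were all 9 members, the largest rise and fall of each other list, the SnRK2 genes and the nearest locus of each member. The list of other PP2C genes was widened after the annotation was seen, from 3 loci to 12. Loci and names came from a RefSeq gene table of TAIR10.1. Probe sequences, promoters and proteins were not used here, so promoter motifs were not searched and cross-hybridisation between close homologs was not tested.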

Additional observations from a re-analysis of the deposited data

Results flagged for a closer look

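The salt response of HAI3 differed between the ecotypes in a test of the difference itself. The difference, Sha minus Ler, was 1.73 ± 0.17 on the log2 scale (SE, limma adjusted p = 0.0024 over 34658 probes), with the response larger in Sha in both within-slide pairs, 7.87 and 7.92 in Sha against 6.11 and 6.23 in Ler. Under normexp background correction it was 1.57 with an adjusted p of 0.069.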

How the results depend on the processing

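The count of 9 genes called with salt ranged from 7 to 9 in each ecotype over all alternatives. It was 7 where AHG1 and HAI2 did not pass a filter asking for signal on all 8 arrays. An equal-variance test of each probe at an unadjusted p under 0.01 lost AHG1 and AHG3 in Ler and ABI2 in Sha. Normexp background correction lowered the changes of dim probes, in Ler to 2.49 for AHG1, 5.20 for HAI2 and 4.98 for HAI3, and moved the median of all tested probes to 0.14 for salt in Ler, −0.14 for Sha vs. Ler without salt and −0.21 with salt.

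Both ecotype comparisons had 0 calls under every alternative not named here. Without a fold limit, the calls were 2 for Sha vs. Ler without salt, 3 with salt and 4 for the difference between the salt responses. The difference had 0 calls under normexp, where HAI3 gave 1.57 (limma adjusted p = 0.069). Leaving out 1 array gave 0 to 1 calls without salt, with AHG1 at −1.05 without Ler control replicate 2 and HAI3 at −1.07 without Sha control replicate 1, and 1 to 2 calls for the difference, with AHG1 added without Ler control replicate 2, although neither Ler control array measured it.

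The estimates that changed sign were all uncalled. HAI2 without salt was 0.10 under quantile normalization. HAB2 was −0.076 without salt and −0.097 with salt under the scan day block, and its difference was 0.012 under median scaling. The ABI1 difference was −0.030 under quantile normalization. With 1 array left out, the HAB2 value with salt ranged from −0.041 to 0.19, HAI1 with salt from −0.29 to 0.0040, and the differences from −0.10 to 0.16 for ABI1 and from −0.14 to 0.10 for HAB2. The cause of these changes was not tested.

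The labels number the replicates 1 and 2 in every group, but same-numbered arrays did not all deviate together (correlations 0.06 to 0.47), so the replicate block is an alternative alone. For the control and salt arrays that shared a slide the correlation was 0.21 in Ler and 0.47 in Sha. The main fit did not use this slide pairing, which the slide block takes into account. With the replicate block 9 and 9 genes were called with salt, 0 and 0 between the ecotypes and 1, HAI3, for the difference.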
